A study of Mus musculus with 12 samples.

Results

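The high-fat diet (HFD) response of gonadal white adipose tissue was examined in mice that lack Bnip3 in macrophages (MKO). Its members are 6 of the 12 libraries of the series, chosen by their genotype and diet labels. MKO HFD and MKO NCD, the normal chow diet, hold 3 biological replicates (rep) each. The other 6 libraries are WT HFD and WT NCD, with 3 replicates each, which serve here to test whether the diet effect differed between genotypes. The mice went on their diet at 8 weeks of age for 12 weeks, at 22 degrees Celsius and under a 12-h light and 12-h dark cycle. Per the labels both MKO groups carry the macrophage deletion, so the deletion is common to the 2 groups compared. The Cre driver, the strain and the hour of tissue collection are not given in the sources used here.

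BNIP3 sits in the outer mitochondrial membrane and recruits the autophagy machinery, which removes the mitochondrion. Macrophages are a minority of the cells of lean fat. In wild-type mice they gather in gonadal fat as it expands on a fat-rich diet, while fibroblasts lay down collagen. Adipocytes make fatty acids from sugar on chow, and dietary fat lowers that synthesis.

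Libraries held 52.9 to 72.7 M counts, and the 6 MKO libraries 53.3 to 68.6 M. Levels are CPM, counts scaled to a common library size, listed for rep 1, 2 and 3 in that order, or as mean ± SD with n = 3. Changes are log2 fold changes of HFD over NCD with their standard error (SE). Adjusted p is from the edgeR quasi-likelihood test over 20297 genes in 1 fit of all 12 libraries, with a threshold of 0.05. The p-values measure the spread between the biological replicates; whether a replicate is 1 mouse or a pool is not given. In whole tissue, fewer cells of a type and less RNA per cell cannot be told apart. The label of fat was matched by adipocyte markers, which do not check the gonadal part of the label. Fabp4, the adipocyte fatty acid carrier, ranked from 2 to 4 among all genes by the authors' TPM in the MKO libraries, and adiponectin (Adipoq) from 19 to 22. The other genes ranked were Car3 (3 to 6), Cfd (5 to 43), Plin1 (54 to 87) and Lep (31 to 163).

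MKO NCD rep 2 stood apart from every other library. Zeros made up 57.3% of its 32238 gene values, compared with 28.1 to 32.5% for the other MKO libraries. For 702 genes it had 0 while every other library had 100 counts or more, and no second library showed a gene of this kind. The zeros followed the level of the gene. Among genes at 1 to 2 CPM in MKO NCD rep 1 and 3, 63.5% were at 0 in rep 2, and 4.503% of those at 10 to 20 CPM were. None of the 3671 genes at 50 CPM or more was at 0. Correlations of its log2 CPM with the other MKO libraries were 0.873 to 0.885, while those among the others were 0.934 to 0.981. The counts of called genes and the stable changes are therefore also given without MKO NCD rep 2, from a fit of the 11 other libraries and 21595 genes, and a call that was lost without it is named as such.

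**Figure D1:**
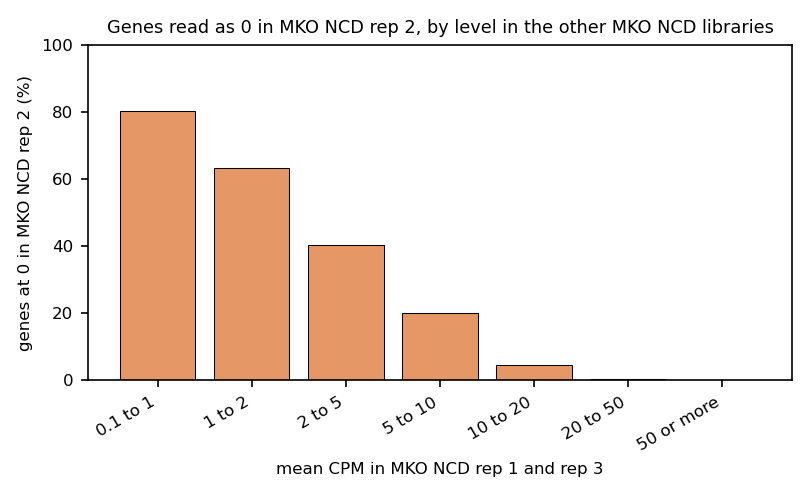
Share of genes that read 0 in MKO NCD rep 2 (y axis, percent) by their mean level in MKO NCD rep 1 and rep 3 (x axis, CPM). The share is 80.5% for genes at 0.1 to 1 CPM and 0 for genes at 50 CPM or more.

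HFD raised 212 genes in MKO fat (1.04% of those tested) and lowered 196 (0.966%), 2.01% in all. Without MKO NCD rep 2, 197 were higher (0.912%) and 160 lower (0.741%), 1.65% in all. Of the rises 104 were called in both fits, which is 49.1% of the first list and 52.8% of the second. Of the falls 122 were shared, 62.2% and 76.3% of the lists. A fit of only the 6 MKO libraries called 19 higher (0.109%) and 22 lower (0.126%), 0.235% in all. One of only 5 MKO libraries, without rep 2, called 324 higher (1.75%) and 525 lower (2.83%), 4.58% in all. Library choice moved the counts. They were 72 higher and 57 lower without MKO HFD rep 1, 38 and 37 without MKO HFD rep 2, 50 and 43 without MKO HFD rep 3, and 40 and 60 without MKO NCD rep 3. Leaving out WT HFD rep 1 gave 101 and 118, and 128 and 120 genes were higher once WT HFD rep 2 or rep 3 was out. A set of 58 genes, 30 higher and 28 lower, passed in the fit of all libraries and in each of the 12 fits that left out 1 library. These are called stable below, and a gene not called stable is given with the libraries whose removal ended its call. The word "any" then stands for each of the 3 libraries of a group left out in turn. Stable refers only to these fits, each of which takes its spread from MKO and WT libraries together. The fit of only the 6 MKO libraries called 41 genes in all, so part of the 58 did not pass there. The median change over all genes tested was 0.06. At an unadjusted p under 0.05, 1756 genes were higher (8.65%) and 1701 lower (8.38%). DESeq2 called 856 higher (4.23%) and 925 lower (4.58%) of the 20216 genes it gave an adjusted p, and limma-voom 235 (1.16%) and 173 (0.852%). Counts of list members by these rules are to be read against those shares. The MKO groups did not overlap for 3058 genes that were higher (15.1%) and 1862 that were lower (9.17%).

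Most of the called changes in MKO were also called in WT fat, whose diet comparison shares no library with that in MKO. Both comparisons use the same fit and its estimate of the spread of each gene, so the 2 lists of calls are not independent. Of the 212 rises 178 were called higher in WT, which is 84.0% of the MKO list and 9.23% of the 1929 rises in WT. Of the 196 falls 143 were called lower in WT, 72.96% of the MKO list and 8.51% of the 1681 falls in WT. Of the rises 2 were called lower in WT, and none of the falls was called higher there. In WT, 9.5% of genes were called higher and 8.28% lower, 17.8% in all. The WT NCD libraries also held transcripts of the epididymis, the duct that gonadal fat lies on. The 9 epididymis markers summed to 6358 to 6887 CPM in WT NCD and 0 to 0.836 CPM in WT HFD. Their part in the WT falls was not tested. Since the fit shares 1 estimate of the spread, leaving out MKO NCD rep 2 also moved the WT calls, to 15.1% higher and 16.3% lower, 31.4% in all.

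Genes of the circadian clock were among the steadiest changes in MKO fat. The hour of tissue collection is not given. A diet effect on these genes and a difference in that hour between the groups therefore cannot be told apart. In the circadian clock, CLOCK and its partner BMAL1 (the product of Arntl) bind E-box sequences and drive the genes of the PER and CRY repressors, of REV-ERB (Nr1d1, Nr1d2) and of the factors DBP, TEF and HLF, which bind D-box sequences. REV-ERB in turn represses Arntl. The letters CACGTG (E-box, which reads the same on both strands) were searched in the 250 bases before the start that the RefSeq promoter table lists for each gene (GRCm38.p6, the mm10 assembly). For some genes that start lies inside the annotated gene, and the sequences here are printed only up to the gene's edge, which leaves out 42 bases of the Per3 window, 29 of Ciart, 71 of Mki67 and 10 of Top2a, with no match to the capitalised motifs among them. They are in 4 of the 12 clock promoters found in that table and in 6.05% of 27025 promoters. TTATGNAA (D-box, both strands) is in 2 of the 12 and in 3.23% of all. The promoters of 3 clock genes that fell are shown because they hold these motifs, with E-box letters in capitals in Tef and Ciart and D-box letters in capitals in Per3.
Per3 (chr4:151044708-151044915, minus strand): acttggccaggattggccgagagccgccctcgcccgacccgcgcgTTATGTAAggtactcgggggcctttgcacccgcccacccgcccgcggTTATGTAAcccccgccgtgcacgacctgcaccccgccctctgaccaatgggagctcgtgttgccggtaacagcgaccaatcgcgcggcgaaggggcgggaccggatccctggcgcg
Tef (chr15:81802423-81802672, plus strand): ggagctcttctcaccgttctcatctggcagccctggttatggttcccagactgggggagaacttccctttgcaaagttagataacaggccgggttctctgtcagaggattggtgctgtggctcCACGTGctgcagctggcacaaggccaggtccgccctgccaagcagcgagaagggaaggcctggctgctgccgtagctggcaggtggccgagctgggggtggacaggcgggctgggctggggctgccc
Ciart (chr3:95882258-95882478, minus strand): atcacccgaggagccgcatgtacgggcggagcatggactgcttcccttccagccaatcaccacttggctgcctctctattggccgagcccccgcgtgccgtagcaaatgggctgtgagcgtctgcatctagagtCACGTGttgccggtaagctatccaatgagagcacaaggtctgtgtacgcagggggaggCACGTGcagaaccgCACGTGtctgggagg
The Per3 window holds 2 D-box matches, Tef 1 E-box and Ciart 3. Of the clock promoters not shown, Cry1 holds the E-box and Per1 holds both motifs. Dbp and Nr1d2, which also fell, hold neither in the window searched. A match says only that the letters are there.

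Of 13 clock genes tested, 6 were lower and 1 was higher in MKO HFD, where 0.966% and 1.04% of all genes were. Their median change was -1.08. Without MKO NCD rep 2, 6 were lower and 2 higher, with a median of -1.15. In WT, 9 were lower and 1 was higher. No member passed the test of a difference between the diet effects of MKO and WT. Dbp read 16.5, 8.44 and 11.3 CPM in MKO HFD, against 84.96, 119 and 99.98 CPM in MKO NCD. Every HFD library lay far below every NCD library, with a log2 fold change of -3.07 (SE 0.35, adjusted p = 0.00334) and, without MKO NCD rep 2, -2.94 (adjusted p = 0.0101). Per3, a period gene, read 41.6, 34.6 and 32.4 CPM in MKO HFD, against 135, 186 and 149 CPM in MKO NCD. Its change was -2.12 (SE 0.24, adjusted p = 0.00334), and -1.97 (adjusted p = 0.0101) without rep 2. Tef read 103, 95.7 and 99.2 CPM in MKO HFD, against 285, 358 and 329.9 CPM in MKO NCD, a fall of the same order in each library. The change was -1.71 (SE 0.17, adjusted p = 0.00168), and -1.63 (adjusted p = 0.00629) without rep 2. All 3 were stable.

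The REV-ERB gene Nr1d2 read 62.98, 49.5 and 72.8 CPM in MKO HFD, against 161, 175 and 148 CPM in MKO NCD, and its fall was stable at -1.39 (SE 0.17, adjusted p = 0.00523), -1.32 (adjusted p = 0.0166) without rep 2. Its paralog Nr1d1 read 122, 83.9 and 98.5 CPM in MKO HFD, against 244, 136 and 270.5 CPM in MKO NCD. The lowest chow library of Nr1d1 was rep 2. The change of Nr1d1 was -1.10 (SE 0.26, adjusted p = 0.0609), and -1.34 (adjusted p = 0.0213) without that library, where it passed. Ciart, a repressor of CLOCK and BMAL1, read 1.52, 1.11 and 1.13 CPM in MKO HFD, against 6.20, 6.32 and 6.22 CPM in MKO NCD, at -2.32 (SE 0.48, adjusted p = 0.0366). That call was lost without any MKO HFD library, MKO NCD rep 1 or 3, any WT HFD library or WT NCD rep 2 (adjusted p 0.0501 to 0.168). Cry2 read 51.3, 63.5 and 62.5 CPM in MKO HFD, against 99.2, 138 and 87.8 CPM in MKO NCD, at -0.88 (SE 0.17, adjusted p = 0.0327), and the call was lost without any MKO HFD library, MKO NCD rep 2 or WT HFD rep 3 (adjusted p 0.0519 to 0.117). On the positive side of the loop, Clock read 128, 149 and 139 CPM in MKO HFD, against 78.5, 61.8 and 60.99 CPM in MKO NCD. The HFD libraries were all higher and the rise was stable at 1.05 (SE 0.13, adjusted p = 0.00586), 0.99 (adjusted p = 0.0187) without rep 2. Arntl read 22.6, 24.4 and 15.6 CPM in MKO HFD, against 4.18, 0 and 3.45 CPM in MKO NCD. MKO NCD rep 2 is one of its zeros. Arntl did not pass with all libraries, at 3.04 (SE 1.07, adjusted p = 0.189), and passed without rep 2 at 2.45 (adjusted p = 0.00797).

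**Figure D2:**
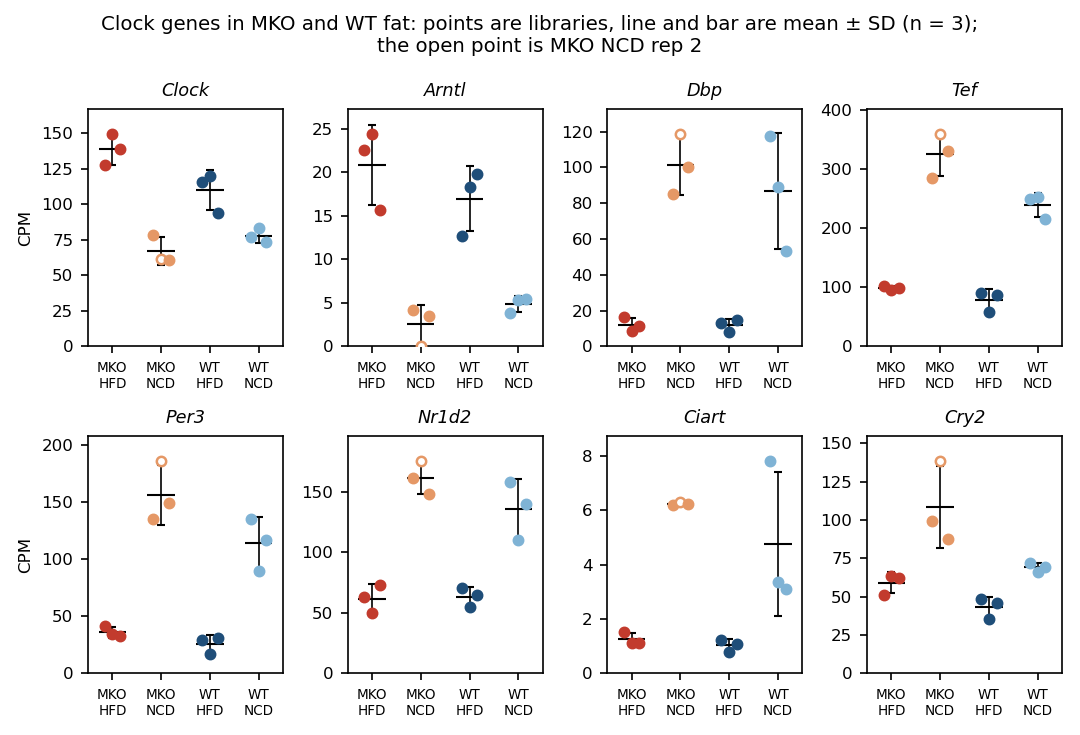
Level of 8 clock genes (y axis, CPM) in each library of MKO HFD, MKO NCD, WT HFD and WT NCD (x axis), with the group mean as a line and the SD as a bar. In each panel of MKO libraries the groups do not overlap, with Clock and Arntl higher and the other 6 genes lower in HFD; the open point is MKO NCD rep 2, which reads 0 for Arntl.

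Hlf and Noct, outside that list, were also called. Hlf read 6.27, 3.40 and 5.999 CPM in MKO HFD, against 25.1, 60.7 and 23.2 CPM in MKO NCD, with a change of -2.80 (SE 0.42, adjusted p = 0.0119) that was lost without MKO HFD rep 2 (adjusted p = 0.0533). Noct, a rhythmic phosphatase of NADP cofactors, read 62.1, 59.1 and 75.04 CPM in MKO HFD, against 22.6, 23.97 and 21.2 CPM in MKO NCD. It rose in a stable way, at 1.53 (SE 0.16, adjusted p = 0.00249), 1.58 (adjusted p = 0.00815) without rep 2.

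Of the genes that make fatty acids, a part was lower in MKO HFD. Of 20 genes of fatty acid and triglyceride synthesis 3 were lower and none higher, with a median change of -0.46. Without MKO NCD rep 2, 4 were lower, with a median of -0.37. The count of lower members was 1 without MKO HFD rep 1, MKO HFD rep 3 or MKO NCD rep 3, and 5 without WT NCD rep 2. A higher member was called when WT NCD rep 1 or rep 2 was left out. In WT 7 members were higher and 6 lower. The test of a difference between the diet effects called 1 member higher and 1 lower in MKO. Acaca encodes acetyl-CoA carboxylase, which commits carbon to fatty acid synthesis. It read 526, 634 and 371 CPM in MKO HFD, against 1645, 1809 and 1535 CPM in MKO NCD. The HFD libraries all lay well below the lowest chow library, and the change was stable at -1.70 (SE 0.18, adjusted p = 0.00249), -1.64 (adjusted p = 0.00815) without rep 2. In WT, Acaca averaged 234 ± 24.4 CPM in WT HFD and 494 ± 31.1 CPM in WT NCD, with a change of -1.08 (adjusted p = 0.00215).

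Acly, which makes the acetyl-CoA that Acaca uses, read 567, 692 and 499 CPM in MKO HFD, against 1618, 1341 and 2232 CPM in MKO NCD. The groups did not overlap and the change was -1.56 (SE 0.25, adjusted p = 0.0147), -1.72 (adjusted p = 0.0182) without rep 2. That call was lost without MKO HFD rep 1 or 3 or MKO NCD rep 3 (adjusted p 0.0520 to 0.0675). In WT it averaged 368 ± 36.9 CPM in WT HFD and 365 ± 122 CPM in WT NCD, a change of 0.01 (adjusted p = 0.980). The test of the difference between genotypes missed the threshold, at -1.58 (SE 0.35, adjusted p = 0.0712). Fads1, a desaturase of polyunsaturated fatty acids, read 51.5, 54.4 and 42.997 CPM in MKO HFD, against 154, 191 and 188 CPM in MKO NCD. Its change was -1.84 (SE 0.31, adjusted p = 0.0166), lost without any MKO HFD library or MKO NCD rep 3 (adjusted p 0.0604 to 0.0819). Elovl6, which lengthens palmitate, read 54.4, 54.9 and 49.1 CPM in MKO HFD, against 149, 61.4 and 139 CPM in MKO NCD. Chow rep 2 lay near the HFD libraries while rep 1 and rep 3 were far above them. The change was -1.14 (SE 0.27, adjusted p = 0.0613) with all libraries and -1.45 (adjusted p = 0.00464) without rep 2. Fasn, the fatty acid synthase, read 3828, 5249 and 3655 CPM in MKO HFD, against 8394, 9987 and 11480.5 CPM in MKO NCD. Its groups did not overlap, and its change of -1.23 (SE 0.28, adjusted p = 0.0539) did not pass, nor did that of -1.23 (adjusted p = 0.0902) without rep 2. Scd1, the desaturase that makes oleate, overlapped between groups, at 53115, 37118 and 47214 CPM in MKO HFD, against 46417, 59993 and 44169 CPM in MKO NCD, with a change of -0.13 (SE 0.25, adjusted p = 0.851).

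Acacb, the carboxylase of the mitochondrial surface, lies outside the list and read 152, 136 and 98.3 CPM in MKO HFD, against 259, 624 and 452 CPM in MKO NCD, at -1.79 (SE 0.32, adjusted p = 0.0200). The call was lost without any MKO HFD library or MKO NCD rep 3 (adjusted p 0.0569 to 0.0892).

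Slc5a6, Gpd2, Tkt and Ppargc1b also had stable falls. Slc5a6, the transporter of biotin, the cofactor of acetyl-CoA carboxylase, read 30.4, 24.9 and 22.9 CPM in MKO HFD, against 90.2, 167 and 116 CPM in MKO NCD. The groups were far apart, and the change was -2.25 (SE 0.26, adjusted p = 0.00360), -1.98 (adjusted p = 0.00815) without rep 2. Gpd2, the mitochondrial glycerol-3-phosphate dehydrogenase, read 51.9, 56.3 and 40.1 CPM in MKO HFD, against 105, 149.6 and 133 CPM in MKO NCD. Its change was -1.39 (SE 0.16, adjusted p = 0.00334), -1.27 (adjusted p = 0.00900) without rep 2. Tkt, a transketolase of the pentose phosphate pathway, read 479.6, 550.3 and 429.8 CPM in MKO HFD, against 1178, 1036 and 1585 CPM in MKO NCD. Tkt changed by -1.38 (SE 0.16, adjusted p = 0.00360) in MKO and by -1.51 (adjusted p = 0.00464) without rep 2, against -0.20 (adjusted p = 0.437) in WT, with a difference of -1.18 (SE 0.22, adjusted p = 0.0565). Ppargc1b, a coactivator of mitochondrial and lipogenic genes, read 8.63, 12.03 and 8.33 CPM in MKO HFD, against 27.01, 37.02 and 25.4 CPM in MKO NCD. Its change was -1.63 (SE 0.20, adjusted p = 0.00506), -1.44 (adjusted p = 0.00900) without rep 2. It was 1 of 10 thermogenic genes called, and none of the others passed.

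A part of the cholesterol synthesis genes was higher in MKO HFD. SREBP-2 drives these genes when sterols in the membrane are low, through sterol regulatory elements. The letters CACCCCAC, one such element, were searched on both strands and are in 1 of the 9 promoters of the list found in RefSeq (GRCm38.p6) and in 2.51% of all. The 1 is Hmgcs1, the member with the strongest change, shown with the element in capitals.
Hmgcs1 (chr13:119690101-119690350, plus strand): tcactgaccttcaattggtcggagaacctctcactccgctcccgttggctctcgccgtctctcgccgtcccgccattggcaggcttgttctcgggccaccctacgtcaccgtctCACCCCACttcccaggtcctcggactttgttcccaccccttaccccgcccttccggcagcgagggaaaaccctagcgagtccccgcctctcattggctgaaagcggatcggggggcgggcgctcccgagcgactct
Of 16 genes tested 4 were higher and none lower, with a median of 0.55. Without MKO NCD rep 2, 2 were higher, with a median of 0.49. The count was 1 without MKO HFD rep 2, and 2 without MKO HFD rep 3 or MKO NCD rep 3. In WT 10 were higher and 1 was lower, and 2 members passed the test of a difference between the diet effects, both lower in MKO.

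Hmgcs1, the synthase that opens the pathway, read 686, 911 and 761 CPM in MKO HFD, against 246, 234 and 196 CPM in MKO NCD. Each HFD library lay far above the highest chow library, and the rise was stable at 1.80 (SE 0.19, adjusted p = 0.00249), 1.83 (adjusted p = 0.00851) without rep 2. Insig1, the sterol-sensing brake on SREBP that is itself an SREBP target, read 577, 792 and 734 CPM in MKO HFD, against 236, 265 and 299.8 CPM in MKO NCD. It changed by 1.39 (SE 0.21, adjusted p = 0.0121), lost without MKO HFD rep 2 (adjusted p = 0.0512). Lss, which closes the sterol rings, read 75.8, 85.5 and 87.1 CPM in MKO HFD, against 62.6, 52.4 and 52.3 CPM in MKO NCD. Its change of 0.57 (SE 0.13, adjusted p = 0.0490) was lost without any MKO HFD library, MKO NCD rep 2 or 3, WT HFD rep 1 or 3 or any WT NCD library (adjusted p 0.0524 to 0.173).

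**Figure D3:**
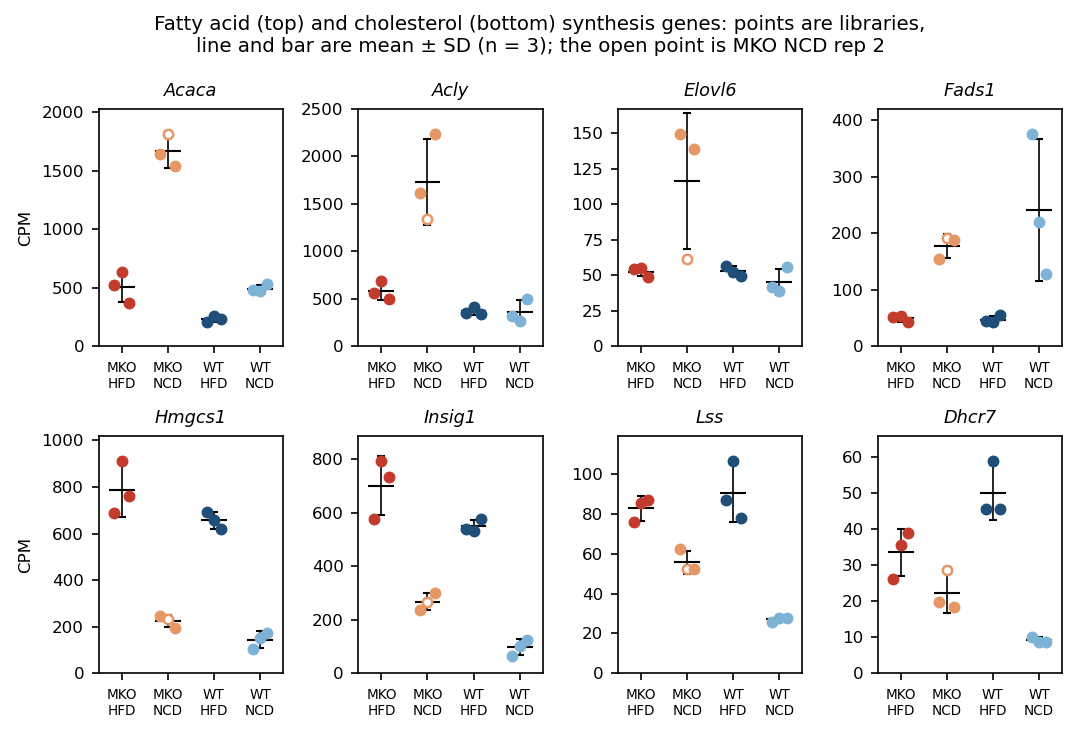
Level of 4 fatty acid synthesis genes (top row) and 4 cholesterol synthesis genes (bottom row) in each library (y axis, CPM) by group (x axis), with mean and SD. In the MKO libraries the top row is lower in HFD without overlap, and Hmgcs1, Insig1 and Lss are higher without overlap, while the groups overlap for Dhcr7; Acly averages 586 CPM in MKO HFD and 1730.2 CPM in MKO NCD, and Hmgcs1 averages 786 CPM in MKO HFD and 225 CPM in MKO NCD.

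Of 16 adipocyte identity genes 2 were lower and none higher, with a median of -0.36, and neither passed without MKO NCD rep 2. At an unadjusted p under 0.05, 6 were lower and 1 was higher. DESeq2 also called 6 lower and 1 higher, and limma-voom 2 lower. The MKO groups did not overlap for 8 that were lower and 1 that was higher, against 9.17% and 15.1% of all genes. Cfd, the secreted protease adipsin, read 1974, 1944 and 881 CPM in MKO HFD, against 5625, 10939.8 and 8602 CPM in MKO NCD. HFD rep 3 was the lowest. The change was -2.39 (SE 0.48, adjusted p = 0.0327), lost without any MKO HFD library, MKO NCD rep 2 or 3 or WT HFD rep 3 (adjusted p 0.0519 to 0.112). Pck1, which makes glycerol for triglyceride, read 818, 809.9 and 668 CPM in MKO HFD, against 1482, 2133 and 1853 CPM in MKO NCD. It changed by -1.25 (SE 0.25, adjusted p = 0.0322), lost without any MKO HFD library, MKO NCD rep 2 or 3 or WT HFD rep 1 (adjusted p 0.0537 to 0.125). In WT, Pck1 changed by -2.84 (adjusted p = 0.000140). Adipoq read 2681, 2711 and 2748 CPM in MKO HFD, against 2988, 3474 and 3594 CPM in MKO NCD, a difference of -0.30 (SE 0.26, adjusted p = 0.621) that did not pass. Lep encodes leptin, through which fat signals its stores to the brain, and read 3089.9, 3898 and 4659.7 CPM in MKO HFD, against 1962, 2490.4 and 1009.5 CPM in MKO NCD. Its HFD libraries were all above chow, and the change of 1.09 (SE 0.32, adjusted p = 0.118) did not pass. In WT, Lep averaged 4742 ± 536 CPM in WT HFD and 744 ± 241 CPM in WT NCD, at 2.67 (adjusted p = 0.000582), and the difference between the diet effects was -1.58 (SE 0.45, adjusted p = 0.135). Nampt, which recycles nicotinamide into NAD, read 139.8, 133 and 121 CPM in MKO HFD, against 198, 292 and 264 CPM in MKO NCD, at -0.94 (SE 0.15, adjusted p = 0.0134). That call was lost without MKO HFD rep 2 or 3 or MKO NCD rep 3 (adjusted p 0.0520 to 0.0615). It and Cfd were the 2 called of 13 adipokines and secreted factors, both lower. Of these, Nampt passed without MKO NCD rep 2 as well, at -0.82 (adjusted p = 0.0286).

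Bnip3 itself read 446, 415 and 476 CPM in MKO HFD, against 547, 811 and 563 CPM in MKO NCD. Its groups did not overlap and chow rep 2 was the highest library. The change was -0.52 (SE 0.17, adjusted p = 0.169), and -0.32 (adjusted p = 0.322) without rep 2, and neither passed. The deletion is in macrophages and whole-tissue counts hold transcripts of every cell type, so these values do not check the label. Optn, an autophagy receptor, was the only called member of 17 genes of mitophagy and autophagy. It read 97.7, 126 and 126 CPM in MKO HFD, against 69.4, 39.1 and 62.9 CPM in MKO NCD and changed by 1.03 (SE 0.19, adjusted p = 0.0243), lost without MKO HFD rep 2 or 3 or MKO NCD rep 3 (adjusted p 0.0680 to 0.0921).

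The fat mass expansion list, written with earlier results of these data known, gave 3 higher and none lower of 8, with a median of 2.35. In WT 3 were higher and 1 was lower, which was Nnat, at -2.25 (adjusted p = 0.00169). In MKO none of the 8 passed without MKO NCD rep 2. The count was also 0 without MKO NCD rep 3, and it was 1 without any MKO HFD library, any WT HFD library or WT NCD rep 2. Tph2, which makes serotonin, read 6.39, 10.1 and 76.4 CPM in MKO HFD, against 0.675, 0 and 0 CPM in MKO NCD. Most of the HFD level was in rep 3. Its adjusted p was 0.0208, lost without MKO NCD rep 2 or 3 (adjusted p 0.0510 to 0.0790). Bmp3, a factor of the bone morphogenetic protein family, read 54.3, 58.1 and 102 CPM in MKO HFD, against 26.2, 8.81 and 5.78 CPM in MKO NCD, at 2.40 (SE 0.53, adjusted p = 0.0460), lost without any MKO HFD library, MKO NCD rep 2 or 3, any WT HFD library or WT NCD rep 1 or 2 (adjusted p 0.0600 to 0.163). The imprinted gene Peg3 read 109, 165 and 352 CPM in MKO HFD, against 40.97, 60.5 and 25.1 CPM in MKO NCD, at 2.31 (SE 0.50, adjusted p = 0.0424), lost without any MKO HFD library, any MKO NCD library, any WT HFD library or WT NCD rep 2 or 3 (adjusted p 0.0501 to 0.147). Mest, an imprinted gene that tracks fat mass, read 582, 968 and 1555 CPM in MKO HFD, against 266, 171 and 107 CPM in MKO NCD. HFD rep 3 was again the highest, and the change of 2.51 (SE 0.58, adjusted p = 0.0556) did not pass.

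Cdkn1a had the smallest p of all genes in the MKO comparison. It encodes the cell-cycle inhibitor p21. It read 108, 115 and 111 CPM in MKO HFD, against 15.1, 14.01 and 8.01 CPM in MKO NCD, which is 8.99-fold higher in HFD. The HFD libraries lay close together, and the change was stable at 3.17 (SE 0.23, adjusted p = 0.000506), 3.27 (adjusted p = 0.00295) without rep 2. WT fat averaged 93.4 ± 13.99 CPM in WT HFD and 15.6 ± 2.06 CPM in WT NCD, a change of 2.58 (adjusted p = 0.000102). The difference between genotypes was 0.59 (SE 0.30, adjusted p = 0.447).

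Several genes of dividing cells were higher too. Many of them share a promoter layout in which a CHR element binds the MuvB complex and CCAAT boxes bind NF-Y. TTTGAA (CHR, both strands) was found in 5 of the 15 promoters of the list in RefSeq and in 16.3% of all promoters. CCAAT (both strands) was in 14 of the 15 and in 34.5% of all. It was also in 8 of the 9 cholesterol synthesis promoters and 9 of the 12 clock promoters, so it was not particular to division genes. The CHR variant TTCGAA was in 2 of the 15 and in 1.34% of all. No 2 matches overlap in the windows shown. The promoters of the 2 members with stable rises are shown with CHR, the CHR variant TTCGAA and CCAAT boxes in capitals on either strand.
Top2a (chr11:99024200-99024439, minus strand): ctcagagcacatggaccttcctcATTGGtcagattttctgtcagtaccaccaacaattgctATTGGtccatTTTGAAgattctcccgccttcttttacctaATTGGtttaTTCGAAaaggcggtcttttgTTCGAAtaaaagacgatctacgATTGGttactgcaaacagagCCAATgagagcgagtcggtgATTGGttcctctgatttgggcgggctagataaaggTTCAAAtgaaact
Mki67 (chr7:135716451-135716629, minus strand): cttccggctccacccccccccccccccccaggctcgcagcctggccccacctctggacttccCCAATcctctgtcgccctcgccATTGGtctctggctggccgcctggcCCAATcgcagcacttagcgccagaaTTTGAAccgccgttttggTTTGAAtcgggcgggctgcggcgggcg
Top2a holds 2 CHR, 2 variant and 6 CCAAT matches in this window, and Mki67 holds 2 CHR and 3 CCAAT matches.

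Of 17 cell division genes 3 were higher and none lower, and 8 were higher without MKO NCD rep 2. The median was 2.41 with all libraries and 2.09 without rep 2. In the fits that left out another library the count was 2 to 3. Of the members, 8 read 0 in MKO NCD rep 2 and above 0 in both other chow libraries. Top2a, the topoisomerase that untangles replicated DNA, read 39.5, 29.4 and 21.1 CPM in MKO HFD, against 6.92, 5.46 and 4.91 CPM in MKO NCD. It rose in every HFD library, at 2.38 (SE 0.29, adjusted p = 0.00488), 2.34 (adjusted p = 0.0175) without rep 2. Mki67, a protein of dividing cells, read 79.6, 48.5 and 36.7 CPM in MKO HFD, against 9.20, 13.03 and 6.55 CPM in MKO NCD. Within HFD it was highest in rep 1 and lowest in rep 3, and the change was 2.52 (SE 0.35, adjusted p = 0.00913), 2.80 (adjusted p = 0.0156) without rep 2. Both were stable. Cenpf, a kinetochore protein, read 14.4, 9.04 and 5.65 CPM in MKO HFD, against 1.72, 1.73 and 1.66 CPM in MKO NCD, at 2.51 (SE 0.49, adjusted p = 0.0315). The call was lost without any MKO HFD library, any MKO NCD library or any WT HFD library (adjusted p 0.0519 to 0.112).

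Cdk1, the kinase that starts mitosis, read 13.9, 9.001 and 9.03 CPM in MKO HFD, against 1.97, 0 and 1.51 CPM in MKO NCD. It is at 0 in chow rep 2. The change was 3.20 (SE 1.04, adjusted p = 0.159) with all libraries and 2.61 (adjusted p = 0.00802) without rep 2. Birc5 (survivin), of the chromosomal passenger complex, read 9.58, 5.11 and 5.58 CPM in MKO HFD, against 1.37, 0 and 0.981 CPM in MKO NCD. It followed the same pattern, at 3.11 (SE 1.06, adjusted p = 0.176) and 2.52 (adjusted p = 0.0103). Other members called without rep 2 were Ccna2, Aurkb, Bub1 and Cenpe. Knstrn, a spindle protein, read 6.59, 4.15 and 4.22 CPM in MKO HFD, against 1.11, 0.449 and 1.31 CPM in MKO NCD. It passed both ways, at 2.38 (SE 0.50, adjusted p = 0.0391) and 2.04 (adjusted p = 0.0345), and was lost without any MKO HFD library, MKO NCD rep 1 or 3, any WT HFD library or WT NCD rep 2 (adjusted p 0.0545 to 0.137). The histone H3 genes H3c14 and H3c15 were among the largest rises, at 2.59 (SE 0.44, adjusted p = 0.0166) and 2.80 (SE 0.53, adjusted p = 0.0273). They are near-identical copies, so the split of reads between them is uncertain. The call of H3c14 was lost without any MKO HFD library or MKO NCD rep 3 (adjusted p 0.0596 to 0.0967), and that of H3c15 without any MKO HFD library, MKO NCD rep 3 or WT HFD rep 1 (adjusted p 0.0537 to 0.117). In WT, 7 of the 17 division genes were higher and none lower, and no member passed the test of a difference between the genotypes.

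Part of the collagen and matrix program rose in MKO. Of 12 genes of fibrillar and basement membrane collagen 5 were higher and none lower, with a median of 0.74. Without MKO NCD rep 2, 3 were higher, with a median of 0.66. The count was 0 without MKO HFD rep 3 or MKO NCD rep 3, 1 without MKO HFD rep 2, 2 without MKO HFD rep 1, 3 without any WT HFD library or WT NCD rep 3, and finally 8 without MKO NCD rep 1. In WT all 12 were higher, and 1 member, Col3a1, passed the test of a difference between the diet effects. The 10 markers of fibroblasts and progenitors, cells that make this matrix, summed to 6137, 5759 and 6331 CPM in MKO HFD, against 9036, 9438 and 9694 CPM in MKO NCD. Most of that sum was Gsn, an actin-severing protein, and the 9 others summed to 1003, 931 and 775 CPM in MKO HFD, against 796, 728 and 695 CPM in MKO NCD, which overlap. The median change of the 10 was -0.04, and 0.25 without rep 2. None of the 10 was called by edgeR or limma-voom, while DESeq2 called 1 higher and 1 lower; at an unadjusted p under 0.05, 2 were higher and 1 lower. Their part in the collagen changes was not tested. Serpinh1, the chaperone that folds collagen, read 1096, 1219 and 1127 CPM in MKO HFD, against 436, 351 and 383 CPM in MKO NCD. The groups were far apart. The rise was stable, at 1.56 (SE 0.12, adjusted p = 0.000535), 1.49 (adjusted p = 0.00365) without rep 2. Col6a1, of the beaded collagen around adipocytes, read 708, 662 and 1001 CPM in MKO HFD, against 347, 139.7 and 218 CPM in MKO NCD. It changed by 1.75 (SE 0.29, adjusted p = 0.0160), lost without MKO HFD rep 3 or MKO NCD rep 3 (adjusted p 0.0615 to 0.0698). Col6a2 read 768, 699 and 997 CPM in MKO HFD, against 330.4, 92.7 and 225 CPM in MKO NCD. Chow rep 2 was its lowest library, and its change was 1.93 (SE 0.36, adjusted p = 0.0253), lost without any MKO HFD library or MKO NCD rep 3 (adjusted p 0.0625 to 0.0892). Col5a1, which sets the width of collagen fibrils, changed by 1.06 (SE 0.18, adjusted p = 0.0166), lost without MKO HFD rep 2 or 3 or MKO NCD rep 3 (adjusted p 0.0533 to 0.0739). Basement membrane collagens Col4a1 (0.76) and Col18a1 (0.70) passed with all libraries and not without rep 2, at adjusted p = 0.101 and 0.104. Col4a1 was lost without any MKO HFD library, MKO NCD rep 2 or 3, any WT HFD library or WT NCD rep 3 (adjusted p 0.0640 to 0.153), and Col18a1 without any MKO HFD library, MKO NCD rep 2 or 3, any WT HFD library or any WT NCD library (adjusted p 0.0535 to 0.157).

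The major fibrillar collagens did not pass in MKO. Col1a1 read 193, 135 and 287 CPM in MKO HFD, against 125, 207 and 97.7 CPM in MKO NCD. The groups overlapped, with a difference of 0.52 (SE 0.30, adjusted p = 0.406). Col3a1 read 1295, 906 and 1215 CPM in MKO HFD, against 967, 841 and 737 CPM in MKO NCD, also overlapping, at 0.42 (SE 0.22, adjusted p = 0.342). In WT, Col1a1 averaged 638 ± 79.6 CPM in WT HFD and 106 ± 12.99 CPM in WT NCD, and Col3a1 2819 ± 641 CPM in WT HFD and 613 ± 126 CPM in WT NCD, and both passed there. Col12a1, a collagen that links fibrils, read 17.4, 20.1 and 40.1 CPM in MKO HFD, against 6.15, 3.47 and 2.94 CPM in MKO NCD. Rep 3 was the highest of the HFD libraries and all 3 were above chow. The rise was stable at 2.63 (SE 0.38, adjusted p = 0.0107), 2.51 (adjusted p = 0.0288) without rep 2. Adam12, a metalloprotease of activated stromal cells, read 126, 105 and 89.5 CPM in MKO HFD, against 26.3, 23.2 and 26.2 CPM in MKO NCD, and rose in a stable way at 2.08 (SE 0.27, adjusted p = 0.00619), 2.02 (adjusted p = 0.0220) without rep 2.

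Among 17 genes of matrix turnover 2 were higher and none lower, and none passed without MKO NCD rep 2. In WT 13 were higher, and 2 members passed the test of a difference, with a lower effect in MKO. Sparc, a collagen-binding glycoprotein, read 4629, 4052 and 5786 CPM in MKO HFD, against 2849, 2346 and 2275 CPM in MKO NCD. It changed by 0.95 (SE 0.18, adjusted p = 0.0280), lost without any MKO HFD library or MKO NCD rep 2 or 3 (adjusted p 0.0533 to 0.105). Lox, which cross-links collagen, read 95.6, 89.1 and 119 CPM in MKO HFD, against 53.6, 36.2 and 36.8 CPM in MKO NCD. Its change was 1.26 (SE 0.27, adjusted p = 0.0419), lost without any MKO HFD library, MKO NCD rep 2 or 3, any WT HFD library or WT NCD rep 2 (adjusted p 0.0505 to 0.149). Leaving out WT HFD rep 1, 2 or 3 or WT NCD rep 2 left 1 called member.

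No core macrophage marker passed in MKO. Of 19 tested, 0 were called by edgeR in either direction, with all libraries and in each of the 12 fits that left out 1. At an unadjusted p under 0.05, 1 was higher and 2 were lower; DESeq2 called 0 higher and 1 lower, and limma-voom called 0. Their median change was 0.39, and 0.57 without rep 2. In WT 15 of the 19 were higher, with a median of 2.14. No member passed the test of the difference between the genotypes, where the median difference was -1.73. That test called 0.261% of all genes, so the 0 does not show that the diet effects were equal. Summed over the 19 markers the level was 993, 689 and 1677 CPM in MKO HFD, against 882, 1039.8 and 769.7 CPM in MKO NCD. HFD rep 3 was the highest and the groups overlapped. Adgre1, the F4/80 antigen, read 26.7, 18.1 and 63.4 CPM in MKO HFD, against 28.9, 54.5 and 20.7 CPM in MKO NCD. Its difference was 0.06 (SE 0.52, adjusted p = 0.978), and 0.54 (adjusted p = 0.659) without rep 2. WT averaged 213 ± 81.1 CPM in WT HFD and 26.1 ± 11.9 CPM in WT NCD. The difference between the diet effects missed the threshold, at -2.97 (SE 0.74, adjusted p = 0.0983). Lyz2, macrophage lysozyme, read 269, 192 and 435 CPM in MKO HFD, against 251, 283 and 231 CPM in MKO NCD, at 0.23 (SE 0.38, adjusted p = 0.823).

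The list for lipid-associated macrophages, cells that surround dying adipocytes, gave 0 called of 20 in MKO by edgeR and 16 higher in WT. The test of a difference between the diet effects called 2 members, both with a lower effect in MKO. Fabp4, Fabp5, Lpl and Cd36 are also in the fatty acid uptake list and Plin2 in the lipid droplet list. The counts therefore do not read out these macrophages alone. At an unadjusted p under 0.05, 9 were higher in MKO HFD and 0 lower; DESeq2 called 1 higher and limma-voom called 0. Trem2, the lipid receptor of these macrophages, read 5.78, 2.19 and 23.8 CPM in MKO HFD, against 3.58, 0 and 3.24 CPM in MKO NCD. Most of the signal was in HFD rep 3, chow rep 2 was at 0, and the difference was 2.23 (SE 1.15, adjusted p = 0.351). Itgax (CD11c) read 11.4, 10.5 and 61.999 CPM in MKO HFD, against 7.86, 0 and 4.89 CPM in MKO NCD, with the same library highest, at 2.72 (SE 1.11, adjusted p = 0.248). Of 16 genes of resident and alternatively activated macrophages, 0 were called in MKO and 5 were higher in WT. The test of a difference between the diet effects called 1 of these 16, Stab1. At an unadjusted p under 0.05, 1 was higher and 1 lower in MKO, and neither DESeq2 nor limma-voom called any. For 7 genes of antigen presentation by MHC class II the counts were 0 in MKO, also unadjusted and by DESeq2 and limma-voom, and 7 higher in WT. The test of a difference between the diet effects called 0 of these 7, at a median difference of -1.28.

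Single immune genes did pass. Ccl2, which attracts monocytes, was the 1 called of 18 cytokines and chemokines. It read 8.89, 11.6 and 18.9 CPM in MKO HFD, against 2.61, 4.16 and 1.21 CPM in MKO NCD. All HFD libraries were above chow, at 2.30 (SE 0.45, adjusted p = 0.0315) and 2.78 (adjusted p = 0.0213) without rep 2, and the call was lost without any MKO HFD library, MKO NCD rep 1 or 3 or any WT HFD library (adjusted p 0.0513 to 0.116). C2, a complement protease, was the 1 called of 12 complement and Fc receptor genes, and it was lower. It read 84.4, 94.1 and 90.6 CPM in MKO HFD, against 224, 359.8 and 239 CPM in MKO NCD, a change of -1.61 (SE 0.27, adjusted p = 0.0160), lost without any MKO HFD library (adjusted p 0.0639 to 0.0675). Oas2, an antiviral sensor, was the 1 called of 16 interferon-stimulated genes, at 0.87 (SE 0.17, adjusted p = 0.0327), lost without any MKO HFD library, MKO NCD rep 1 or 3 or any WT HFD library (adjusted p 0.0522 to 0.145). Irf8, a factor of myeloid development, was the 1 called of 9 dendritic cell markers, at 1.33 (SE 0.29, adjusted p = 0.0442), lost without MKO HFD rep 2 or 3, any MKO NCD library, any WT HFD library or WT NCD rep 2 or 3 (adjusted p 0.0503 to 0.140). The 8 others summed to 48.1, 61.99 and 54.7 CPM in MKO HFD, against 49.7, 33.7 and 45.8 CPM in MKO NCD, which overlap, and their part in the change of Irf8 was not tested. S100a9 was the 1 called of 6 monocyte and neutrophil markers. It was at 0 in every MKO NCD library and at 0.263, 0.0960 and 0.124 CPM in MKO HFD, and it passed in none of the fits that left out 1 library (adjusted p 0.0510 to 0.115).

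**Figure D4:**
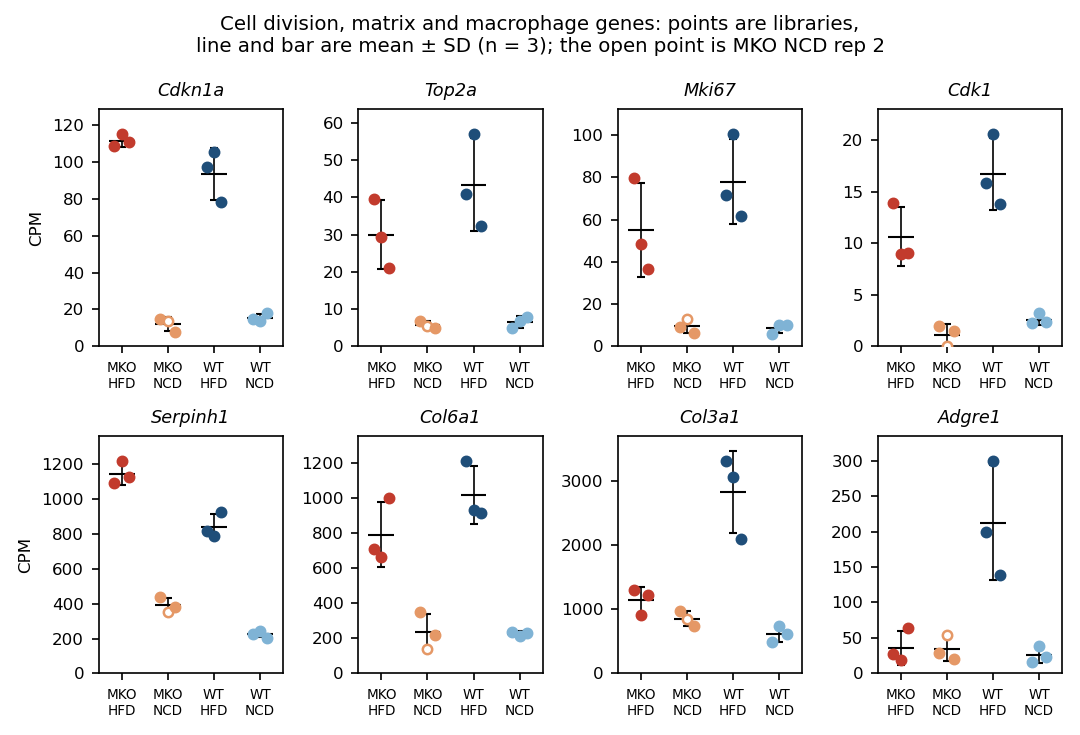
Level of cell division, matrix and macrophage genes in each library (y axis, CPM) by group (x axis), with mean and SD. Cdkn1a, Top2a, Mki67, Cdk1, Serpinh1 and Col6a1 are higher in MKO HFD than in MKO NCD without overlap, while the MKO groups overlap for Col3a1 and Adgre1; the open point is MKO NCD rep 2.

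The largest rises and falls lay mostly outside these lists. Ncan, a chondroitin sulfate proteoglycan best known from brain matrix, read 38.5, 48.5 and 44.97 CPM in MKO HFD, against 5.77, 4.49 and 3.70 CPM in MKO NCD. It was 9.45-fold higher in HFD, a stable rise of 3.24 (SE 0.36, adjusted p = 0.00326), 3.22 (adjusted p = 0.0115) without rep 2. Paqr9, a membrane receptor of the adiponectin receptor family, read 158, 189.5 and 165 CPM in MKO HFD, against 40.7, 26.6 and 36.6 CPM in MKO NCD, a stable rise of 2.30 (SE 0.21, adjusted p = 0.00155), 2.14 (adjusted p = 0.00464) without rep 2. Both also rose in WT, at 5.16 (adjusted p = 7.90e-05) and 3.62 (adjusted p = 5.38e-05). Wfdc21, a secreted protease inhibitor-like protein, read 43.2, 25.97 and 47.6 CPM in MKO HFD, against 11.003, 3.45 and 8.46 CPM in MKO NCD, at 2.35 (SE 0.44, adjusted p = 0.0261), lost without any MKO HFD library or MKO NCD rep 3 (adjusted p 0.0512 to 0.0895).

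Among the falls, Rassf6, a Ras-association domain protein, read 0.263, 0.288 and 0.282 CPM in MKO HFD, against 3.85, 11.7 and 6.01 CPM in MKO NCD. Its HFD libraries were nearly at one level and the fall was stable at -4.68 (SE 0.59, adjusted p = 0.00531), -4.14 (adjusted p = 0.00369) without rep 2. Dennd2d, an exchange factor for Rab GTPases, read 15.1, 12.3 and 6.72 CPM in MKO HFD, against 52.6, 103 and 77.4 CPM in MKO NCD, a stable fall of -2.77 (SE 0.33, adjusted p = 0.00378), -2.52 (adjusted p = 0.0101) without rep 2. Rnf144b, a ubiquitin ligase, read 22.2, 21.4 and 18.9 CPM in MKO HFD, against 93.8, 150.3 and 141 CPM in MKO NCD. It had the smallest p among the falls, at -2.62 (SE 0.21, adjusted p = 0.000581), -2.50 (adjusted p = 0.00295) without rep 2, and it was stable. Tns2, a focal adhesion protein, read 179.98, 176 and 191 CPM in MKO HFD, against 350.4, 437 and 397 CPM in MKO NCD, a stable fall of -1.12 (SE 0.10, adjusted p = 0.00155), -1.04 (adjusted p = 0.00464) without rep 2. Cyp2f2, a cytochrome P450, read 3.58, 1.71 and 0.865 CPM in MKO HFD, against 18.8, 56.1 and 26.4 CPM in MKO NCD. Chow rep 2 was the highest library. It changed by -4.04 (SE 0.70, adjusted p = 0.0187), lost without MKO HFD rep 2 or 3 or MKO NCD rep 3 (adjusted p 0.0520 to 0.0874).

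Calml3 and Bspry, which are expressed in epithelia, fell from low levels. Calml3 read 0.0404, 0.0576 and 0.106 CPM in MKO HFD, against 11.5, 3.19 and 2.28 CPM in MKO NCD, with adjusted p = 0.0212, lost without any MKO HFD library (adjusted p 0.0832 to 0.0998). Bspry read 0.0808, 0 and 0.159 CPM in MKO HFD, against 1.75, 0.931 and 1.59 CPM in MKO NCD, with adjusted p = 0.0303, lost without MKO HFD rep 1 or 3, MKO NCD rep 3, WT HFD rep 1 or WT NCD rep 2 or 3 (adjusted p 0.0503 to 0.110). Transcripts of the epididymis, the duct that gonadal fat lies on, were also present in part of the libraries. The summed level of the 9 epididymis markers in the table was 0.364, 0.0768 and 0.265 CPM in MKO HFD, against 19.96, 0 and 1.89 CPM in MKO NCD. Chow rep 2 read 0 for them, and at these levels a 0 in that library cannot be read as absence. In WT it was 0 to 0.836 CPM in HFD and 6358 to 6887 CPM in NCD. Of 7 epididymis markers tested none passed in MKO with all libraries by edgeR, DESeq2 or limma-voom (2 lower at an unadjusted p under 0.05), and Crisp1 was lower without MKO NCD rep 2 (adjusted p = 0.0305). Of the 9 markers 3 were at 0 in all MKO libraries. Their part in the falls of Calml3 and Bspry was not tested.

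The diet effect differed between MKO and WT for 53 genes, 24 with a higher effect in MKO (0.118%) and 29 with a lower one (0.143%), 0.261% in all. All 53 were also called without MKO NCD rep 2, where 89 (0.412%) and 102 (0.472%) genes passed, 0.884% in all. The counts depended on single libraries. They were 5 higher and 3 lower without MKO HFD rep 1 or rep 2, 48 and 240 without MKO HFD rep 3, 11 and 8 without MKO NCD rep 1, and 2 and 2 without MKO NCD rep 3. Of the WT HFD libraries, leaving out rep 1 gave 1 and 1, rep 2 gave 2 and 0, and rep 3 gave 24 and 43. Of the WT NCD libraries, rep 1 gave 19 and 9, and rep 3 gave 75 and 33. Without WT HFD rep 2, where edgeR called 0 lower, 936 were higher and 1156 lower at an unadjusted p under 0.05. With all libraries limma-voom called 80 higher and 96 lower, and DESeq2 495 and 667. Of the 29 genes with a lower effect in MKO, 28 were called higher in WT, and 3 were called higher and 1 lower in MKO. Their median change was 0.17 in MKO and 1.72 in WT.

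Apobec1, Slc6a6, Csf2rb2 and Stab1 were among the 29. None of the 19 core macrophage markers was, although their median difference was -1.73. Apobec1, an RNA-editing deaminase, read 28.1, 25.2 and 41.9 CPM in MKO HFD, against 21.02, 27.3 and 21.8 CPM in MKO NCD. The MKO groups overlapped, while WT averaged 153 ± 28.5 CPM in WT HFD and 16.05 ± 2.46 CPM in WT NCD. The difference between the diet effects was -2.81 (SE 0.31, adjusted p = 0.00983), lost without WT HFD rep 2 (adjusted p = 0.0548). Slc6a6, the taurine transporter, read 61.4, 53.2 and 101 CPM in MKO HFD, against 123, 165 and 122 CPM in MKO NCD. It was lower in each MKO HFD library than in any MKO NCD library without passing (-0.93, adjusted p = 0.0908), and WT averaged 349.5 ± 84.2 CPM in WT HFD and 95.4 ± 10.3 CPM in WT NCD. The difference was -2.80 (SE 0.35, adjusted p = 0.0180), lost without MKO HFD rep 1, MKO NCD rep 3 or WT HFD rep 1 or 2 (adjusted p 0.0574 to 0.0659). Csf2rb2, a beta chain of the IL-3 receptor, had a difference of -2.41 (SE 0.40, adjusted p = 0.0428), lost without MKO HFD rep 1 or 2, MKO NCD rep 1 or 3, any WT HFD library or WT NCD rep 1 or 2 (adjusted p 0.0568 to 0.134). Stab1, a scavenger receptor, read 88.1, 84.5 and 116 CPM in MKO HFD, against 95.05, 85.2 and 92.1 CPM in MKO NCD, overlapping between the diets in MKO (0.08, adjusted p = 0.834). WT averaged 162 ± 29.7 CPM in WT HFD and 60.2 ± 2.03 CPM in WT NCD. The difference was -1.35 (SE 0.21, adjusted p = 0.0304), lost without MKO HFD rep 1 or 2, MKO NCD rep 1 or 3, WT HFD rep 1 or 2 or WT NCD rep 1 or 2 (adjusted p 0.0571 to 0.108).

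Plin2, Fabp5, Tgfb1, Col3a1, Dhcr7 and Lss were among them too. Plin2, which coats lipid droplets, read 440.3, 486 and 626 CPM in MKO HFD, against 345, 332 and 389.5 CPM in MKO NCD. WT averaged 1052 ± 254 CPM in WT HFD and 161 ± 32.5 CPM in WT NCD, so the lowest of the 4 group means was WT NCD. The difference was -2.17 (SE 0.30, adjusted p = 0.0261), lost without MKO HFD rep 1 or 2, MKO NCD rep 1 or 3 or WT HFD rep 1 or 2 (adjusted p 0.0552 to 0.0877). Fabp5, a fatty acid carrier, had -1.78 (SE 0.29, adjusted p = 0.0368), lost without MKO HFD rep 2, MKO NCD rep 1 or 3, WT HFD rep 1 or 2 or WT NCD rep 1 or 2 (adjusted p 0.0618 to 0.125). Tgfb1, a growth factor of fibrosis, read 40.4, 35.5 and 37.8 CPM in MKO HFD, against 29.1, 35.5 and 32.9 CPM in MKO NCD, with WT means of 70.3 ± 8.16 CPM in WT HFD and 24.96 ± 1.56 CPM in WT NCD. Its difference was -1.27 (SE 0.17, adjusted p = 0.0225), lost without MKO HFD rep 1 or 2, MKO NCD rep 3 or WT HFD rep 1 or 2 (adjusted p 0.0617 to 0.0772). Col3a1 had -1.78 (SE 0.31, adjusted p = 0.0489), lost without MKO HFD rep 1 or 2, MKO NCD rep 1 or 3, WT HFD rep 1 or 2 or any WT NCD library (adjusted p 0.0501 to 0.144). Of cholesterol synthesis, Dhcr7 and Lss had a lower effect in MKO, at -1.85 (SE 0.29, adjusted p = 0.0294) and -1.16 (SE 0.18, adjusted p = 0.0294). Dhcr7 was lost without MKO HFD rep 1 or 2, MKO NCD rep 1 or 3, WT HFD rep 1 or 2 or WT NCD rep 1 or 2 (adjusted p 0.0537 to 0.109), and Lss without MKO HFD rep 1 or 2, MKO NCD rep 1 or 3, WT HFD rep 1 or 2 or WT NCD rep 1 or 2 (adjusted p 0.0571 to 0.106).

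All 24 genes with a higher diet effect in MKO were called lower in WT, and their median change was 0.03 in MKO and -2.31 in WT. Emx2, a homeobox gene of the urogenital tract, read 1.07, 0.557 and 0.547 CPM in MKO HFD, against 1.61, 1.09 and 0.578 CPM in MKO NCD, and WT averaged 1.14 ± 0.299 CPM in WT HFD and 38.7 ± 17.5 CPM in WT NCD. Cd52, a surface peptide of leukocytes and of the epididymis, read 9.98, 9.08 and 17.1 CPM in MKO HFD, against 10.9, 12.95 and 7.45 CPM in MKO NCD, and WT averaged 47.2 ± 10.3 CPM in WT HFD and 543 ± 225 CPM in WT NCD. Fads2, a desaturase, averaged 14.1 ± 3.61 CPM in MKO HFD and 26.1 ± 4.58 CPM in MKO NCD, and 15.8 ± 3.04 CPM in WT HFD and 329 ± 220.1 CPM in WT NCD. For all 3 the WT NCD mean stood above the other groups, and those are the libraries with the high epididymis sum given above, whose part in these differences was not tested. The differences were 4.49 (SE 0.65, adjusted p = 0.0261) for Emx2, 3.73 (SE 0.49, adjusted p = 0.0225) for Cd52 and 3.49 (SE 0.61, adjusted p = 0.0496) for Fads2. The call of Emx2 was lost without MKO HFD rep 1 or 2, MKO NCD rep 3, WT HFD rep 1 or 2 or WT NCD rep 1 (adjusted p 0.0537 to 0.0892). That of Cd52 was lost without MKO HFD rep 1, MKO NCD rep 1 or 3 or WT HFD rep 1 or 2 (adjusted p 0.0515 to 0.0858), and that of Fads2 without MKO HFD rep 1 or 2, MKO NCD rep 1 or 3, any WT HFD library or WT NCD rep 2 (adjusted p 0.0576 to 0.150). Fanca, a DNA repair protein, read 4.002, 2.94 and 2.89 CPM in MKO HFD, against 0.967, 1.51 and 0.368 CPM in MKO NCD, with WT means of 3.87 ± 1.53 CPM in WT HFD and 23.5 ± 7.98 CPM in WT NCD. Its difference was 4.39 (SE 0.72, adjusted p = 0.0428), lost without MKO HFD rep 1 or 2, MKO NCD rep 1 or 3, any WT HFD library or WT NCD rep 1 or 2 (adjusted p 0.0568 to 0.121). The WT NCD mean of Fanca also stood above the other groups, and the part of the epididymis transcripts in its difference was not tested.

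**Figure D5:**
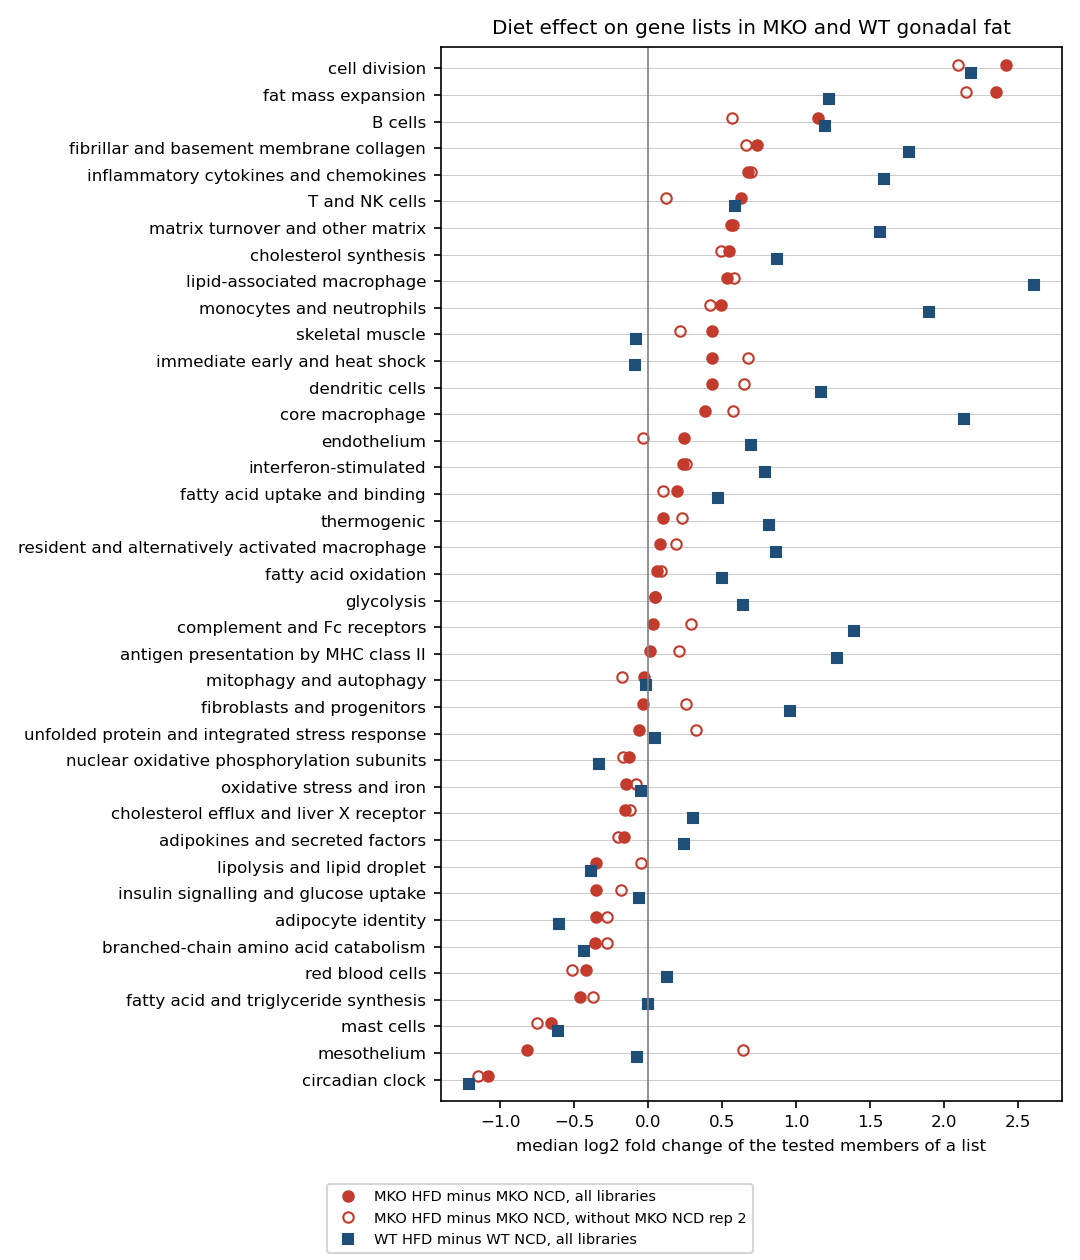
Median log2 fold change (x axis) of the tested members of 39 gene lists (y axis), for MKO HFD minus MKO NCD with all libraries (filled circles) and without MKO NCD rep 2 (open circles), and for WT HFD minus WT NCD (squares). Core macrophage genes stand at 0.39 in MKO and 2.14 in WT, and clock genes at -1.08 and -1.21. The epididymis list is not drawn, and its medians were -5.73 in MKO and -18.04 in WT.

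The remaining lists had few calls in MKO. Gpx3, a secreted peroxidase, was the 1 lower of 16 genes of oxidative stress and iron, and Sod2, the mitochondrial superoxide dismutase, the 1 higher. Gpx3 read 349, 309 and 225 CPM in MKO HFD, against 753, 1368 and 1119.5 CPM in MKO NCD, at -1.87 (SE 0.29, adjusted p = 0.0126), lost without MKO HFD rep 2 or 3 (adjusted p 0.0535 to 0.0538). Sod2 read 223, 203 and 222 CPM in MKO HFD, against 135, 147 and 143 CPM in MKO NCD, a small and even rise of 0.61 (SE 0.10, adjusted p = 0.0183), lost without any MKO HFD library or MKO NCD rep 3 (adjusted p 0.0584 to 0.0783). Tpi1 was the 1 higher of 15 glycolysis genes, at 0.71 (SE 0.13, adjusted p = 0.0212), lost without any MKO HFD library or MKO NCD rep 2 or 3 (adjusted p 0.0530 to 0.0841). In WT 10 of the 15 were higher. The test of a difference between the diet effects called 0 of them, and 4 with a lower effect in MKO without MKO NCD rep 2. By edgeR and limma-voom no member was called among nuclear oxidative phosphorylation subunits (18 tested), fatty acid oxidation (14), branched-chain amino acid catabolism (17), insulin signalling and glucose uptake (14), lipolysis and lipid droplet (15) or cholesterol efflux (10). At an unadjusted p under 0.05, 1 gene of insulin signalling was higher and 8 lower, 3 of lipolysis were higher and 6 lower, 1 of branched-chain catabolism was higher and 6 lower, 1 of fatty acid oxidation was higher and 1 lower, 2 of cholesterol efflux were higher and 2 lower, and 2 oxidative phosphorylation genes were lower. DESeq2 called 4 lower in insulin signalling, 2 lower in lipolysis, 1 higher and 3 lower in branched-chain catabolism, and 1 lower each in fatty acid oxidation and oxidative phosphorylation. Without MKO NCD rep 2, Ppara (-0.73, adjusted p = 0.0366) and Bcat1 (1.802, adjusted p = 0.0336) passed among these. Markers of endothelium, mesothelium, T and NK cells, B cells, mast cells, skeletal muscle and red blood cells also had no call in MKO by edgeR or limma-voom. DESeq2 called 1 skeletal muscle marker higher, and at an unadjusted p under 0.05, 1 marker each of mesothelium, mast cells and red blood cells was lower. Fatty acid uptake and binding (10 tested) had no call by edgeR, 1 higher by limma-voom, and 2 higher and 1 lower by DESeq2. The unfolded protein and integrated stress response (13) had none by edgeR or limma-voom, and 2 higher and 3 lower by DESeq2. At an unadjusted p under 0.05 it had 3 higher and 4 lower. Immediate early and heat shock genes (12) had 1 higher by DESeq2 and none by edgeR or limma-voom. Of the 40 lists 22 had no member called by edgeR with all libraries, and DESeq2 called a member in 12 of these 22 and limma-voom in 1. All 8 B cell markers and 9 of the 12 T and NK cell markers read 0 in MKO NCD rep 2 and above 0 in both other chow libraries, and no change of theirs is readable in that library.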

How the data were processed

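RNA of gonadal fat was sequenced from a stranded mRNA kit, per the labels' protocols. The submitters' processing notes name mm10 and, without roles, HISAT2 2.1.0, DESeq2, bcl2fastq 2.20.0, StringTie 1.3.4d and Trimmomatic; how these steps were set, and whether counting used strand, is not given in the sources used here. The deposited table holds raw read counts per gene, per the file headers, and the authors' TPM, which was used only to rank adipocyte genes within a library.

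From the counts, genes were kept with filterByExpr (20297 of 32238) and tested in R 4.3.3 with edgeR 4.0.16 (TMM, robust quasi-likelihood F test, 1 fit of all 12 libraries by group). SE is the absolute log2 fold change over the square root of F. P-values are adjusted by Benjamini-Hochberg over all genes tested. The difference between genotypes is the MKO diet effect minus the WT diet effect. Alternatives were other size factors and filters, DESeq2 1.42.0, limma-voom 3.58.1, fits of only MKO libraries, glmTreat at a fold of 1.5, a replicate block and leaving out each library. Promoters and positions are RefSeq GRCm38.p6.

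The comparison, gene lists and tests were chosen with earlier results of these data known. Genes named are Bnip3, the 10 largest rises and falls called with and without MKO NCD rep 2 (mean of at least 1 CPM, groups apart), those called only without it, up to 4 members per list with the smallest p, a fixed panel, and the 5 largest differences between genotypes in each direction; the text names a subset, and some genes the rule names are not reported here. Nr1d1, Nr1d2, Ciart, Cry2, Clock, Noct, Acacb, Gpd2, Tkt, Slc5a6, Lss, Cenpf, Ccna2, Aurkb, Cenpe, Col18a1, Serpinh1, Adam12, Tns2, Stab1 and Tgfb1 lie outside that rule and were chosen after their values were seen. Plots come from matplotlib 3.10.9 in Python 3.11.15.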

Additional observations from a re-analysis of the deposited data

Results flagged for a closer look

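For 14 of the genes described above, the diet effect in MKO differed from that in WT by the test of the difference itself, with all 12 libraries in the fit. It was lower in MKO by a log2 difference of -2.81 for Apobec1, -2.803 for Slc6a6, -2.41 for Csf2rb2, -2.17 for Plin2, -1.85 for Dhcr7, -1.78 for Fabp5, -1.78 for Col3a1, -1.35 for Stab1, -1.27 for Tgfb1 and -1.16 for Lss. It was higher in MKO by 4.49 for Emx2, 4.39 for Fanca, 3.73 for Cd52 and 3.49 for Fads2. In WT each of the first 10 was called higher on HFD and each of the last 4 lower. For the last 4 the WT NCD mean stood above the other groups. The 9 epididymis markers summed to 6358 to 6887 CPM in the WT NCD libraries, and their part in these differences was not tested. In MKO, Lss passed (0.57) and the other 13 did not. None of the 14 calls held in all 12 fits that left out 1 library: Apobec1 held in 11 of them and the others in 3 to 8.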

How the results depend on the processing

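With all libraries 212 genes were higher and 196 lower in MKO HFD. The counts were 856 and 925 by DESeq2, 711 and 670 by limma-voom with sample weights, 324 and 525 in a fit of only 5 MKO libraries without MKO NCD rep 2, 19 and 22 with only the 6 MKO libraries, and 17 and 19 against a fold of 1.5. With no count filter 140 were higher and 147 lower. Leaving out 1 library gave 38 to 253 higher and 37 to 227 lower genes. With upper-quartile size factors the split was 163 higher and 223 lower. For the difference between genotypes (24 higher, 29 lower) the counts were 495 and 667 by DESeq2, 80 and 96 by limma-voom, 392 and 487 with sample weights, 99 and 177 without the 2707 genes at 0 in MKO NCD rep 2, and 5 and 3 against a fold of 1.5. Leaving out 1 library gave 1 to 89 higher and 0 to 240 lower genes. The cause was not tested for any of these, other than that fewer samples or genes entered where stated.

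Same-numbered MKO libraries deviated together with correlations of 0.034, 0.059 and -0.043, and the WT ones with -0.143, 0.071 and 0.107. Pairs with different numbers ranged from -0.181 to 0.117. With 3 libraries a group these values cannot tell whether a shared number stands for a shared batch. With a replicate block 75 genes were higher and 85 lower, and 31 and 24 without MKO NCD rep 2; for the difference between genotypes the counts were 8 and 4, and 9 and 2.

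Of the single genes, 5 that did not pass changed direction. Scd1 was -0.13 with all libraries, 0.0074 with 5 MKO libraries, 0.093 with the block and no MKO NCD rep 2, and -0.25 to 0.017 on leaving out 1 library. Adgre1 was 0.06 with all libraries, -0.024 by limma-voom, -0.63 without MKO HFD rep 3, -0.06 without MKO NCD rep 1, -0.21 without MKO NCD rep 3 and up to 0.54. Lyz2 was -0.14 without MKO HFD rep 3 and up to 0.47. Stab1 was -0.036 with sample weights, and -0.072 without MKO HFD rep 3 and up to 0.17. Cd52 was -0.13 without MKO HFD rep 3 and up to 0.395.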
